A study of Mus musculus with 69 samples.

Results

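The genes described here are 7 that mark primitive blood, the first wave of red blood cells made in the yolk sac. They are the embryonic globin genes Hbb-bh1, Hba-x and Hbb-y and the blood transcription factor genes Gata1, Klf1, Tal1 and Lmo2. They were taken by name from the gene column of the deposited expression tables, a choice made with earlier results of these data known, and are 7 of 15924 genes listed over the 3 tables. All 7 were listed in the GSK343 and DMSO table and in the mutant and WT table, and Klf1 and Lmo2 in the table of replated cells, where the other 5 were not analysed here.

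Expression was measured by RNA-seq in CJ7 mouse embryonic stem (ES) cells, a cultured line, and in embryoid bodies, the aggregates these cells form as they differentiate. GSK343, which inhibits EZH2, was added at 4 µM beginning 3 days ahead of differentiation and kept until collection, and controls received its solvent DMSO in equal volume. There were 2 libraries each of GSK343 and DMSO cells at the ES cell stage, at day 4 and at day 8. There were 3 libraries each of EZH2-mutant and wild-type (WT) cells at the same stages, with no drug named for them. The labels give neither the mutant allele nor the number of clones. The replated cells, collected at day 14, were embryoid bodies moved into ES cell medium for 5 days and are named by the treatment before and then after replating. They were GSK343 then GSK343 (2 libraries), GSK343 then DMSO (3), DMSO then GSK343 (3) and DMSO then DMSO (3). ES cells were grown on feeder cells with LIF and serum, and embryoid bodies were made in hanging drops with serum. The labels do not say whether libraries of a group came from separate cultures. The p-values of the tests made here measure the spread between libraries within groups, pooled over all groups fitted together. This spread may be technical.

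EZH2 is the main catalytic subunit of Polycomb repressive complex 2 (PRC2), which methylates histone H3 at lysine 27 to give H3K27me3, a mark found at silent developmental genes. In the mouse yolk sac, primitive erythroblasts make haemoglobin from embryonic globin chains before the fetal liver takes over with adult chains. TAL1 and LMO2 act in one protein complex with GATA factors and LDB1 and are needed for blood to form at all. GATA1 drives erythroid maturation, and KLF1 activates globin and other red cell genes through CACCC boxes. Embryoid bodies make primitive blood in culture from mesoderm that also gives rise to endothelium.

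The 250 bases before the transcription start are shown for Hba-x, Klf1 and Tal1, whose starts lay inside deposited H3K27me3 peaks, and for Hbb-y, whose start did not. They are RefSeq sequences (GRCm38.p6), 5′ to 3′ on the gene's own strand. Capitals mark GATAA, the core that GATA factors bind, and CACCC, the box that KLF1 binds, or their reverse complements TTATC and GGGTG. The windows are chr11:32276350-32276599 (plus strand) for Hba-x, chr8:84901732-84901981 (plus) for Klf1, chr4:115056176-115056425 (plus, the first of 2 listed Tal1 starts) and chr7:103853208-103853457 (minus) for Hbb-y.
Hba-x: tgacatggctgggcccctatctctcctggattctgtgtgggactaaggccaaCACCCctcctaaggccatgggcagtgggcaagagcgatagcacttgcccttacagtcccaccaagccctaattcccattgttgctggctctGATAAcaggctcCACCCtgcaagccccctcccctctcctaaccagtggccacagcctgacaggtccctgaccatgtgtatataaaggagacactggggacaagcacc
Klf1: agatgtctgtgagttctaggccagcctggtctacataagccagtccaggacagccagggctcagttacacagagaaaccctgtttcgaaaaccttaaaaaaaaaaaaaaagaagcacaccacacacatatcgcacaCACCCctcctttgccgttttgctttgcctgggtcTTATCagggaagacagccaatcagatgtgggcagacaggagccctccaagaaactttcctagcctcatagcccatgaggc
Tal1: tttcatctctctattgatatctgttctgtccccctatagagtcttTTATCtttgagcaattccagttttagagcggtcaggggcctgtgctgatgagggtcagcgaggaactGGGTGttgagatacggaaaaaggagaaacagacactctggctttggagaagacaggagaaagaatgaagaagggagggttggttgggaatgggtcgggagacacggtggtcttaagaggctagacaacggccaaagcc
Hbb-y: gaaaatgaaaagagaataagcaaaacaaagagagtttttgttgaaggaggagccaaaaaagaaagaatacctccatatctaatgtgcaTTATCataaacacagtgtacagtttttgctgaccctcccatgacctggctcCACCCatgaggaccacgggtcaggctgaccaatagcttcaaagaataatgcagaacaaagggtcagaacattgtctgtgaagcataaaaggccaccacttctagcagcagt
Each of the 4 printed windows held 1 GATAA match. Hba-x held 2 CACCC matches and Klf1, Tal1 and Hbb-y held 1 each, and no GATAA match overlapped a CACCC match. Over all 32851 mouse promoter windows of 250 bases, searched on both strands in the same way, 22.6% held GATAA and 52.0% held CACCC. The window before the second Tal1 start, which also lay inside the H3K27me3 peak, held 0 of both, and the Gata1 window held 0 GATAA and 2 CACCC matches. A match describes letters only and shows no binding.

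Library depth was 5.01 to 22.0 M reads for GSK343 and DMSO, 7.17 to 28.5 M for mutant and WT and 2.27 to 8.34 M for replated cells. Ezh2 was 18.3, 22.2 and 25.96 RPKM in mutant day 8 libraries 1, 2 and 3, against 42.8, 41.4 and 45.8 RPKM in WT day 8 libraries (log2 fold change -0.95, SE 0.17, limma adjusted p = 0.0185), so reads of the gene remained. RPKM scale reads to gene length and library size, so levels of different genes can be set side by side within a library. Libraries stood apart within the day 8 groups, as Pou5f1, the gene of the pluripotency factor OCT4, shows. In WT day 8 library 3 it was 222 RPKM, against 27.8 and 28.7 RPKM in WT libraries 1 and 2. In mutant day 8 library 1 it was 112 RPKM, against 376 and 236 RPKM in mutant libraries 2 and 3. The same libraries stood apart in the blood genes, and counts of the 7 genes that rest on them are given with and without them. The marker list counts for mutant and WT cells are given with all libraries.

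Before day 8 the globin genes were at or near 0 in every library. Over the 8 ES cell and day 4 libraries of GSK343 and DMSO, Hbb-bh1, the embryonic beta-like globin that leads primitive blood, ran from 0 to 0.958 RPKM with a median of 0. Its highest value there, in GSK343 day 4 library 2, was 11 reads. Hba-x, the embryonic alpha-like zeta globin, ran from 0 to 0.266 RPKM in the same libraries, at most 3 reads. Hbb-y, the embryonic epsilon-like globin, ran from 0 to 0.0914 RPKM, at most 1 read. In the 12 ES cell and day 4 libraries of mutant and WT, Hbb-bh1 reached 4 reads and Hba-x 2 reads in any library. Such counts cannot show a difference between groups at this depth.

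The 4 factor genes were low in ES cells. Gata1 had 9 reads or more in every ES cell library, while Klf1, Tal1 and Lmo2 had 3 reads or fewer in GSK343 library 2, and Tal1 and Lmo2 in WT library 2. In ES cells Gata1 was 1.05 and 0.945 RPKM in GSK343 libraries 1 and 2, against 0.892 and 1.67 RPKM in DMSO libraries. At day 4 Gata1 was 0.484 and 0.363 RPKM in GSK343 libraries, against 0.0893 and 0.171 RPKM in DMSO libraries. Klf1 stayed between 0.260 and 1.11 RPKM over these 8 libraries. Gata1 therefore had its lowest DMSO values at day 4, below both ES cells and day 8.

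From ES cells to day 4, 2 of 7 genes passed in DMSO cells, where 32.8% of all 14016 genes tested passed. Gata1 fell (log2 fold change -0.99, SE 0.21, adjusted p = 0.00630) and Lmo2, the bridging protein of the TAL1 complex, rose (0.68, SE 0.19, adjusted p = 0.0231). Without DMSO ES cell library 2 neither passed, and without DMSO day 4 library 1 or 2 Lmo2 did not. In GSK343 cells 0 of 7 passed, where 22% of genes did (9.75% higher and 12.3% lower). Lmo2 was at 0.241 and 0 RPKM in GSK343 ES cells and at 0.757 and 0.615 RPKM at day 4 (0.60, SE 0.19, adjusted p = 0.0520). In mutant cells 0 of 7 passed, where 6.37% of 14180 genes did (3.1% higher and 3.27% lower). In WT cells 0 of 7 passed, where 8.67% did (4.29% higher and 4.39% lower). Lmo2 was 0.84 higher at day 4 in mutant cells (SE 0.29, adjusted p = 0.103) and 0.92 higher in WT cells (SE 0.29, adjusted p = 0.0600). With the replicate number as a block shared by all mutant and WT libraries, Lmo2 passed by limma in mutant cells (adjusted p = 0.0490) and in WT cells (adjusted p = 0.0290). The authors' deposited values, made by another test, give Lmo2 log2 fold changes of 1.52 in DMSO, 1.83 in GSK343, 1.92 in mutant and 2.07 in WT cells. The adjusted p-values of the authors' test are 0.000407, 0.00136, 0.000673 and 0.00079 in that order.

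**Figure D1:**
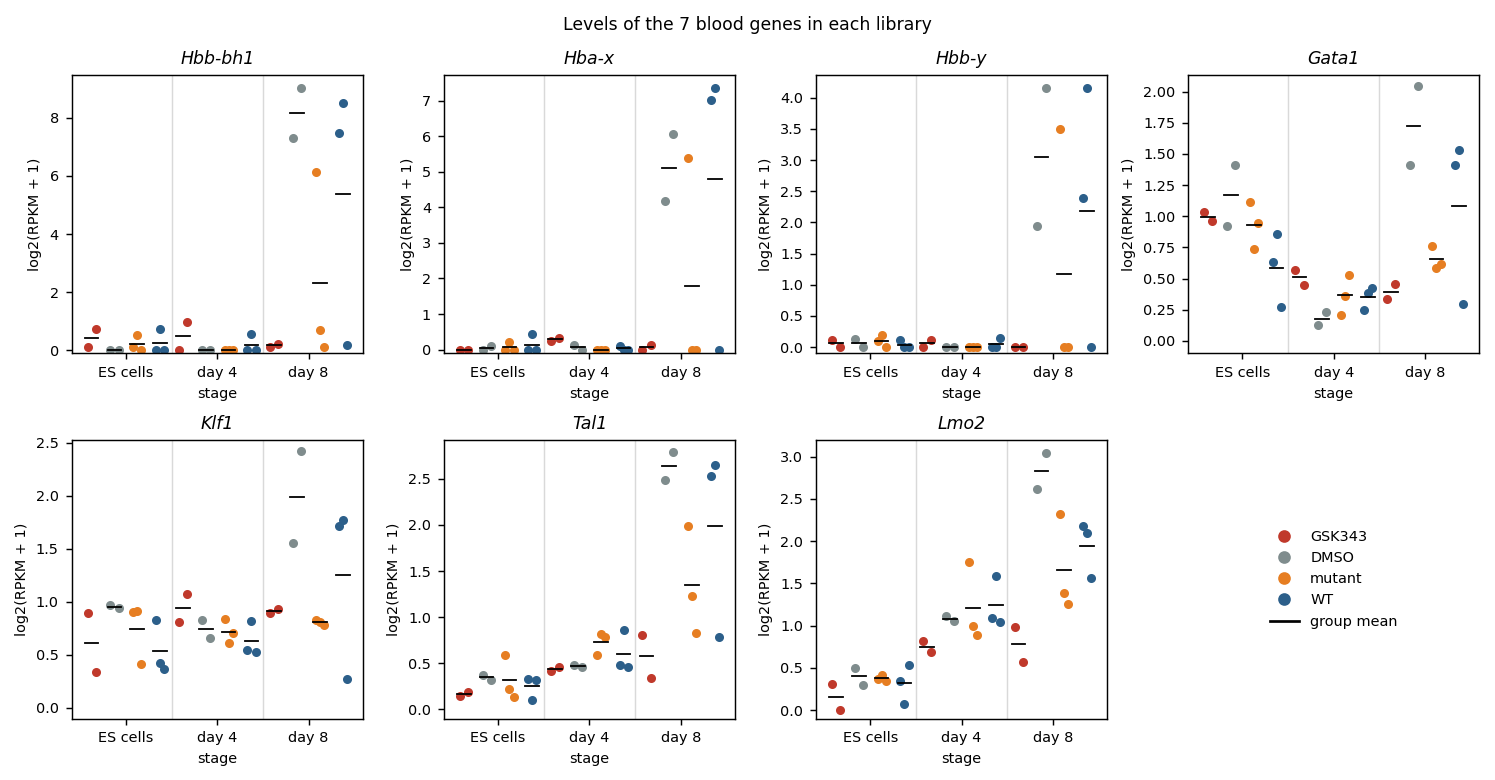
Level of each of the 7 genes, as log2(RPKM + 1), in every GSK343, DMSO, mutant and WT library at the ES cell stage, day 4 and day 8. Each point is 1 library and each black line a group mean (n = 2 for GSK343 and DMSO, n = 3 for mutant and WT), and axes differ between genes. At day 8 both DMSO libraries are high and both GSK343 libraries low, while WT has 2 high libraries and 1 low one and the mutant 1 high globin library and 2 low ones.

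Between day 4 and day 8 the 7 genes rose together in DMSO embryoid bodies and did not pass in GSK343 embryoid bodies. In DMSO cells all 7 passed upward, where 23.3% of genes rose and 41.4% passed in either direction. Hba-x and Hbb-y met the filter of 0.5 RPKM in 2 libraries only through the DMSO day 8 libraries, and Tal1 only through day 8 libraries, so their rise there is a description. Hbb-bh1 was at 0 in both DMSO day 4 libraries, and its day 8 mean of 340 ± 261 RPKM (SD, n = 2) was at least 2716-fold higher, taking 3 reads over the group as the limit of a count of 0. Tal1 had the smallest error relative to its rise among the factor genes (2.17, SE 0.16, adjusted p = 7.08e-06). In GSK343 cells 0 of 7 passed, where 0.706% of genes did (0.649% higher and 0.0571% lower). Their log2 differences there lay between -0.32 for Hbb-bh1 and 0.14 for Tal1.

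At day 8 all 7 genes were lower in GSK343 than in DMSO embryoid bodies, with no overlap between the groups. Of all 14016 genes tested, 31.6% passed in either direction and 16% were lower. With 2 libraries a group, 32% of all genes lay wholly lower in GSK343 cells without overlap. Every value is given for the globins, which differed by the largest amounts. Hbb-bh1 was 0.0745 and 0.177 RPKM in GSK343 libraries 1 and 2, which is 1 and 2 reads, against 156 and 525 RPKM in DMSO libraries, which is 1563 and 5615 reads. Hba-x was 0 and 0.0898 RPKM in GSK343 libraries, against 16.9 and 65.1 RPKM in DMSO libraries. Hbb-y was 0 in both GSK343 libraries, against 2.85 and 16.95 RPKM in DMSO libraries. DMSO library 2 was the higher of the pair for all 7 genes, and for each globin the DMSO libraries differed from each other several-fold.

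The differences on the log2(RPKM + 1) scale, which understates changes of low genes, were -8.00 for Hbb-bh1 (SE 0.48, adjusted p = 1.90e-06) and -5.04 for Hba-x (SE 0.43, adjusted p = 2.13e-05). For Hbb-y the difference was -3.06 (SE 0.50, adjusted p = 0.00126), and its level in GSK343 cells was at least 82.9-fold lower, taking 3 reads over the group as the limit. These errors pool the spread of all groups fitted together, and the globins were at or near 0 in every group but DMSO day 8. The SE and p-values of the globins therefore do not give the spread between the DMSO day 8 libraries alone. Hba-x and Hbb-y passed the filter on low values only through the DMSO day 8 libraries, so a gene that entered the test this way had to differ. Outside these libraries Tal1 reached 0.5 RPKM only in GSK343 day 8 library 1, where 2 libraries were needed. The day 8 difference of Tal1 is therefore a description too. Together the 3 globins took 1 and 3 reads of the GSK343 day 8 libraries, against 0.0107% and 0.0370% of reads in the DMSO day 8 libraries. Globin genes are similar in sequence, and the counting of reads shared between copies is not stated in the labels, so the split among them is uncertain.

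The factor genes fell by less, from levels of a few RPKM. Tal1, which starts blood formation, was 0.755 and 0.265 RPKM in GSK343 day 8 libraries 1 and 2, against 4.62 and 5.91 RPKM in DMSO day 8 libraries (log2 fold change -2.06, SE 0.16, adjusted p = 1.16e-05). Lmo2 was 0.981 and 0.482 RPKM in GSK343 libraries, against 5.13 and 7.26 RPKM in DMSO libraries (-2.05, SE 0.19, adjusted p = 4.02e-05). Both DMSO libraries lay far above both GSK343 libraries for this pair. Gata1 was 0.263 and 0.368 RPKM in GSK343 libraries, against 1.66 and 3.12 RPKM in DMSO libraries (-1.33, SE 0.21, adjusted p = 0.00101). Klf1 was 0.859 and 0.913 RPKM in GSK343 libraries, against 1.94 and 4.35 RPKM in DMSO libraries (-1.07, SE 0.26, adjusted p = 0.0113). Klf1 was the closest to overlap of the 7 and did not pass without DMSO day 8 library 2 (-0.64, adjusted p = 0.0956). In that fit Hba-x and Hbb-y no longer passed the filter, and 4 of the 5 genes tested were lower.

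Within the DMSO day 8 libraries the globins led. In library 1 the order was Hbb-bh1, Hba-x, Lmo2, Tal1, Hbb-y, Klf1 and Gata1, and in library 2 Hbb-y came next after Hba-x, above Lmo2 and Tal1. Hbb-bh1 and Hba-x held the first and second place in both, and Klf1 and Gata1 the last, while the places of Hbb-y, Lmo2 and Tal1 were not separated. In these bulk libraries fewer blood cells and less RNA per blood cell cannot be told apart.

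No GSK343 difference in the 7 genes passed before day 8. At the ES cell stage 0 of 7 genes passed, and 0% of all genes tested did by limma (669 at an unadjusted p under 0.05). At day 4 again 0 of 7 passed, where 0.628% of genes did (0.499% higher and 0.128% lower), and 0 of 7 had an unadjusted p under 0.05 at either stage. The test of the difference between the day 8 and the day 4 effect of GSK343 was passed by 6 of the 7 genes, all toward lower at day 8, where 12.2% of all genes passed in either direction and 6.51% toward lower. Hbb-bh1 differed by -8.48 (SE 0.68, adjusted p = 4.76e-05) and Tal1 by -2.03 (SE 0.23, adjusted p = 0.000407). The Hba-x, Hbb-y and Tal1 values are descriptions, since without the DMSO day 8 libraries these genes would not have met the filter. Klf1 differed by -1.27 (SE 0.37) and did not pass (adjusted p = 0.0522).

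Mutant and WT embryoid bodies at day 8 did not separate, and each group held both high and low libraries. Hbb-bh1 was 68.6, 0.628 and 0.0758 RPKM in mutant libraries 1, 2 and 3, against 176, 365 and 0.130 RPKM in WT libraries 1, 2 and 3. Hba-x was 40.7, 0 and 0 RPKM in mutant libraries, against 128, 164 and 0 RPKM in WT libraries. Hbb-y was 10.3, 0 and 0 RPKM in mutant libraries, against 4.24, 16.8 and 0 RPKM in WT libraries. Mutant library 1 and WT libraries 1 and 2 thus expressed all 3 globins, while mutant libraries 2 and 3 and WT library 3 held 1 or 2 globin reads each. Libraries numbered 1 were high in both genotypes and those numbered 3 low in both, and number 2 split.

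The factor genes split less evenly. Tal1 was 2.97, 1.34 and 0.779 RPKM in mutant day 8 libraries, against 4.79, 5.27 and 0.726 RPKM in WT day 8 libraries. Lmo2 was 3.998, 1.61 and 1.39 RPKM in mutant libraries, against 3.53, 3.28 and 1.95 RPKM in WT libraries. Mutant library 1, high for the globins, had the highest Lmo2 of the 6. Gata1 was 0.693, 0.504 and 0.535 RPKM in mutant libraries, against 1.66, 1.89 and 0.230 RPKM in WT libraries. Klf1 was 0.778, 0.749 and 0.724 RPKM in mutant libraries, against 2.28, 2.42 and 0.207 RPKM in WT libraries. For Gata1 and Klf1 mutant library 1 therefore stayed near the other mutant libraries, although it expressed globins, and all mutant values lay between WT library 3 and the other 2 WT libraries.

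None of the 7 passed between mutant and WT at day 8 by limma, where 1.51% of 14180 genes did (1.3% higher and 0.212% lower), and 0 of 7 had an unadjusted p under 0.05. All 7 differences were negative, the largest of -3.08 for Hbb-bh1 (SE 1.67, adjusted p = 0.436) and the smallest of -0.29 for Lmo2 (SE 0.29, adjusted p = 0.731). Without WT library 3, 5 of 7 passed as lower in the mutant, where 9.2% of all genes passed in either direction. Among them were Hbb-bh1 (-5.68, adjusted p = 0.00816), Hba-x (-5.39, adjusted p = 0.00680) and Klf1 (-0.94, adjusted p = 0.00724). Hba-x and Hbb-y reached 0.5 RPKM only in mutant library 1 and WT libraries 1 and 2, and 3 libraries were needed. A difference of Hba-x or Hbb-y in that fit is therefore a description. WT library 3 was also the lowest WT library for each of the 7 genes, so leaving it out favours a lower mutant. The fit without it is a description for all 7. Without mutant library 1, Hbb-bh1 differed by -4.98 (adjusted p = 0.0910) and 0 of the 5 genes tested passed, where 3.61% of all genes did. At the ES cell stage 0 of 7 passed, where 0.0917% of genes did (0.0635% higher and 0.0282% lower). At day 4 again 0 of 7 passed, where 0.0494% did (0.0282% higher and 0.0212% lower), with 0 of 7 at an unadjusted p under 0.05 at both. The mutant effect at day 8 was not found to differ from that at day 4 for any of the 7, and 0% of all genes passed that test by limma (370 at an unadjusted p under 0.05). It was 0 of 7 also without WT day 8 library 3, where 0.205% of genes passed, and 0 of the 5 tested without mutant day 8 library 1.

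**Figure D2:**
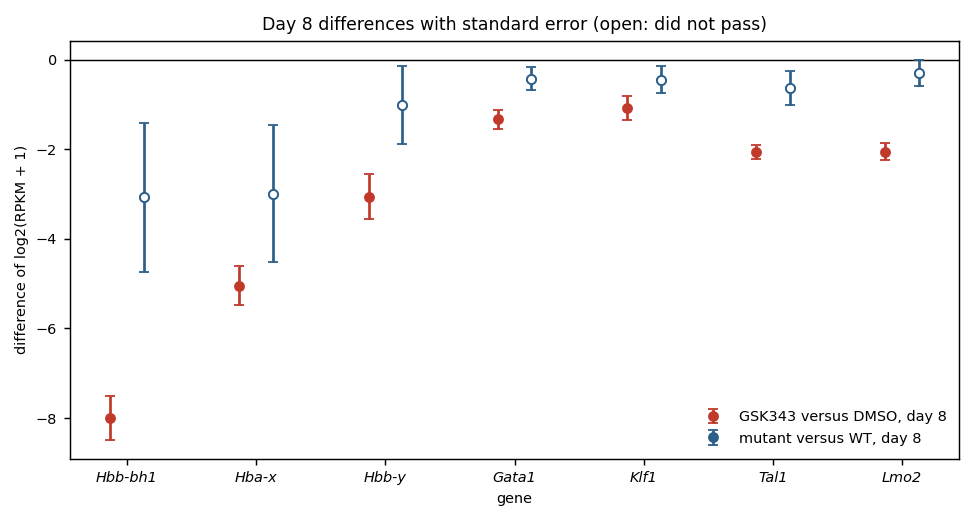
Difference in log2(RPKM + 1) at day 8 with its standard error from limma, for GSK343 minus DMSO (red, n = 2 each) and mutant minus WT (blue, n = 3 each), open where the adjusted p was 0.05 or more. All 7 genes are lower and passed under GSK343, from -8.00 for Hbb-bh1 to -1.07 for Klf1, while the mutant differences are all below 0 with wider errors and none passed. The GSK343 points of Hba-x, Hbb-y and Tal1 are descriptions, since these genes would not have met the filter without the DMSO day 8 libraries.

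Between day 4 and day 8, 3 of 7 genes rose in WT cells, where 20.7% of genes passed, 10.6% higher and 10.2% lower. These were Hbb-bh1 (5.20, SE 1.67, adjusted p = 0.0389), Hba-x (4.75, SE 1.53, adjusted p = 0.0395) and Tal1 (1.39, SE 0.38, adjusted p = 0.0212). Among mutant and WT libraries, Hba-x and Hbb-y met the filter only through 3 day 8 libraries. Hbb-bh1 met it through 4 day 8 libraries and 1 WT ES cell library, where 3 libraries were needed. A rise of these globins is therefore a description. With the replicate number as a block, 5 of 7 passed, with Gata1 and Lmo2 added, where 34.6% of all genes did. That block is shared by all mutant and WT libraries, so it also ties mutant to WT day 8 libraries, which were not taken as paired. With voom on recovered reads 1 of 7 passed (5.53% of genes), and with the WT day 8 and day 4 libraries alone 0 did (6.88%). Without WT day 8 library 3 all 7 passed (31.1% of genes), and 0 of 5 tested did without WT day 8 library 1 (5.96%) or 2 (7.28%). Library 3 was the lowest WT day 8 library for each of the 7, so leaving it out favours a rise, and that count is a description. In mutant cells 0 of 7 passed, where 10.3% of genes did (5.99% higher and 4.35% lower), and the globin differences were 2.31 for Hbb-bh1 (SE 1.67), 1.79 for Hba-x (SE 1.53) and 1.17 for Hbb-y (SE 0.86). Without mutant day 8 library 1, Hbb-bh1 differed by 0.40 and 0 of the 5 genes tested passed, where 4.32% of all genes did. The authors' deposited table, made by another test, gives log2 fold changes from day 4 to day 8 of 9.44 in WT and 7.86 in mutant cells for Hbb-bh1, with adjusted p-values of 1.26e-35 and 2.19e-24. In the mutant that rise was in library 1, since libraries 2 and 3 held 2 and 1 reads of Hbb-bh1.

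The wider set of blood genes was lower in part under GSK343 at day 8. Of 20 listed blood transcription factors and cofactors outside the 7 genes, 17 were tested, 12 were lower and 2 higher, with a median log2 difference of -0.68 beside 0.0013 over all genes. The GATA1 cofactor gene Zfpm1 was lower (-2.39, SE 0.21, adjusted p = 2.35e-05), as were the progenitor factors Meis1 (-2.36, SE 0.30, adjusted p = 0.000231) and Fli1 (-1.79, SE 0.16, adjusted p = 2.39e-05). Myb, which serves definitive rather than primitive blood, was higher (1.91, SE 0.20, adjusted p = 7.14e-05). Gata2 was 0.380 and 0.193 RPKM in GSK343 libraries, against 1.29 and 1.09 RPKM in DMSO libraries (-0.77, SE 0.12, adjusted p = 0.000981). The TAL1 relative Lyl1 (-1.25, SE 0.19, adjusted p = 0.000771) and Runx1, needed for definitive blood (-0.49, SE 0.16, adjusted p = 0.0449), were also lower. Ldb1, the scaffold of the TAL1 and LMO2 complex, differed by -0.27 and did not pass (adjusted p = 0.154).

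Among 31 listed erythroid genes outside the 7, 13 were tested, 5 were lower and 2 higher, with a median of 0.35, so most did not follow the globins. Alas2, the erythroid enzyme that begins haem synthesis, was 1.29 and 0.490 RPKM in GSK343 libraries, against 3.97 and 7.23 RPKM in DMSO libraries (-1.79, SE 0.30, adjusted p = 0.00134). The water channel gene Aqp1 was lower (-2.83, SE 0.18, adjusted p = 3.10e-06) and the blood group gene Rhd higher (1.83, SE 0.19, adjusted p = 7.67e-05). Of 20 progenitor, platelet and macrophage genes only 7 were tested, with 2 lower, Cd93 (-2.15, SE 0.24) and Itga2b (-1.71, SE 0.22), and 3 higher, among them Spn (1.44, SE 0.16) and Coro1a (1.29, SE 0.30).

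Genes of the tissues that share an origin with blood were lower too. Of 17 haemangioblast and endothelial genes tested, 11 were lower and 2 higher, with a median of -1.27. Kdr, the VEGF receptor of blood and vessel precursors, was 0.492 and 0.197 RPKM in GSK343 libraries, against 27.7 and 22.7 RPKM in DMSO libraries (-4.29, SE 0.15, adjusted p = 6.10e-08). Etv2, the factor that starts the blood and vessel lineage, was lower by a smaller amount (-1.44, SE 0.23, adjusted p = 0.00116). Of 9 mesoderm genes tested, 5 were lower and 0 higher, among them Hand1 (-4.98, SE 0.20), Mesp1 (-4.34, SE 0.52) and Bmp4 (-2.61, SE 0.28).

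Markers of other cell types also differed at day 8, most pluripotency genes upward and most genes of the other lists downward in GSK343 cells. Of 12 pluripotency genes 11 were higher in GSK343 cells, and their summed level was 1631 and 2229 RPKM in GSK343 libraries 1 and 2, against 186 and 148 RPKM in DMSO libraries. At day 4, 6 of the 12 pluripotency genes were higher in GSK343 cells, and 0 of the 7 blood genes passed. The globins were then at or near 0 in DMSO cells too, so a fall in them could not have shown. These day 4 values therefore give no order in time. Of 12 cardiac muscle genes 9 were lower and 1 higher, and their sum was 17.3 and 42.8 RPKM in GSK343 libraries, against 156 and 172 RPKM in DMSO libraries. Visceral endoderm genes were lower in 7 of 11 and feeder or mesenchyme genes in 7 of 12, with 0 higher in both lists. The pluripotency sum was 631, 1878 and 1309 RPKM in mutant day 8 libraries, against 69.9, 72.8 and 770 RPKM in WT day 8 libraries. The cardiac sum was 242, 36.0 and 25.3 RPKM in mutant day 8 libraries, against 312, 244 and 27.8 RPKM in WT day 8 libraries, so the 3 libraries with globins were also the 3 with the higher cardiac sums. No gene of these lists with a value was at 0 in every library. Their part in the results for the blood genes was not tested. The share of reads on the ribosomal RNA gene Rn45s was 6.02%, 38.0% and 4.76% in mutant day 8 libraries, against 6.91%, 24.5% and 4.20% in WT day 8 libraries, and did not follow the split of the globins.

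**Figure D3:**
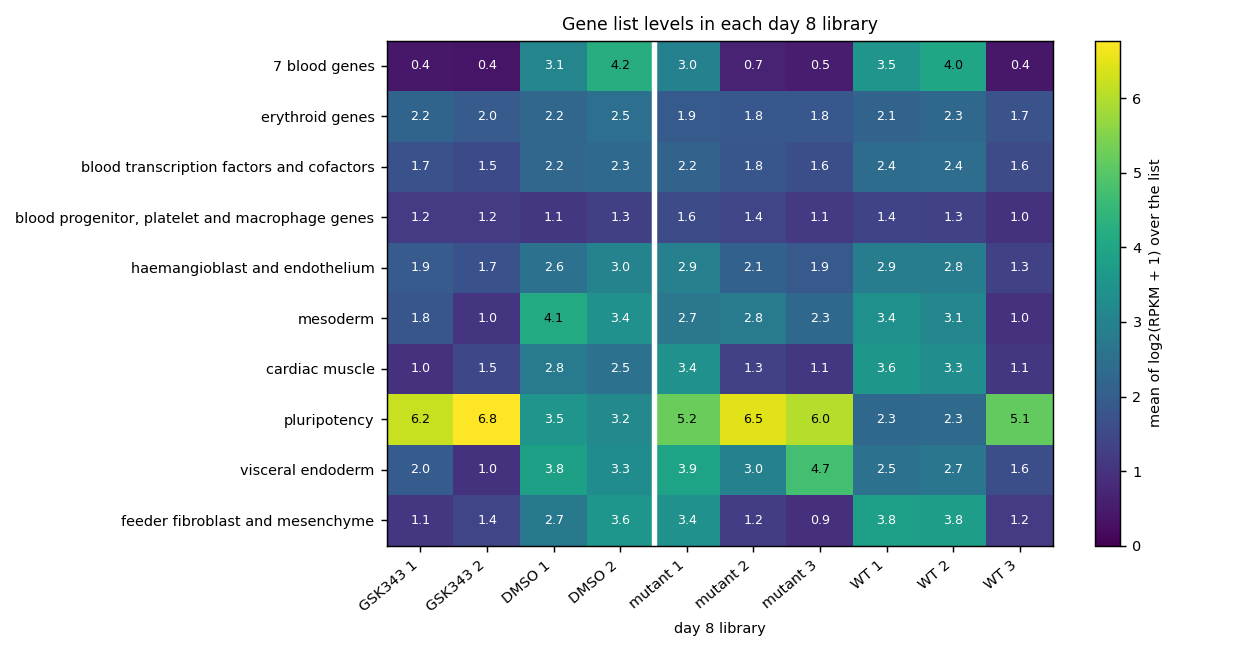
Mean of log2(RPKM + 1) over the 7 blood genes and over each of 9 gene lists in the 10 day 8 libraries, with GSK343 and DMSO left of the white line and mutant and WT right of it. The 7 blood genes average from 2.99 to 4.22 in DMSO libraries 1 and 2, mutant library 1 and WT libraries 1 and 2, and from 0.379 to 0.673 in the other 5. The pluripotency mean is 5.14 to 6.77 in those 5, 5.23 in mutant library 1 and 2.26 to 3.52 in the DMSO and the other 2 WT libraries.

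Between mutant and WT at day 8, 0 genes of the erythroid, blood factor, progenitor, endothelial and mesoderm lists passed by limma. Pluripotency genes were higher in 2 of 12 and visceral endoderm genes in 6 of 12, with 0 lower in both. Kdr was 20.3, 3.94 and 2.78 RPKM in mutant libraries, against 24.5, 27.6 and 1.13 RPKM in WT libraries.

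Genes whose levels ran most like those of Hbb-bh1 were found by Pearson's r of log2(RPKM + 1) over the libraries of a table, as a description, since points share stage and library. Over the 12 GSK343 and DMSO libraries these were Tdo2, Gata5, Hapln1, Dpf3 and Plxna4, with r from 0.993 to 0.995. Over the 18 mutant and WT libraries they were Carmn, Dlk1, Tnnt2, Sdk2 and Nr1h5, with r from 0.990 to 0.993. Tnnt2, cardiac troponin T, is on the cardiac list above. For Tal1 the closest were Rasgrp3, Scn7a, Cdh5, Sphkap and Msx1 in the first table (r from 0.991 to 0.993) and C430049B03Rik, Grap, Gimap1, Amer3 and Dusp26 in the second (0.958 to 0.967). Cdh5 encodes the endothelial VE-cadherin. For the mean of the 7 genes they were Hapln1, Grap2, Cd93, F10 and Tlx1 in the first and Dlk1, Usp29, Carmn, Sdk2 and Grap in the second, with r of at least 0.991 in both.

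Chromatin at the 7 genes was read from deposited CUT&RUN peaks on mm10, a method that cuts out DNA beside an antibody's target. The merged WT set of H3K27me3 peaks had a peak within 1 kb of 4 of the 7 genes, where 32.7% of 15648 genes with a position had one. At Hba-x the peak was 43.9 kb long, chr11:32268307-32312159, and covered the whole gene. At Klf1 it was 22.3 kb (chr8:84892979-84915309) and at Tal1 30.7 kb (chr4:115045171-115075881), again over the whole gene. At Lmo2 a 14.1 kb peak (chr2:103964645-103978698) lay inside the gene span. Hbb-bh1, Hbb-y and Gata1 had none. The printed starts of Hba-x, Klf1 and Tal1 are thus under H3K27me3 peaks and that of Hbb-y is not. Hbb-bh1 and Hbb-y lie 8.59 kb apart in one cluster on chromosome 7, and Hba-x in the alpha cluster on chromosome 11, so the 2 kinds of embryonic globin differed in this set.

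Merged WT peaks of the PRC2 subunits and of Ring1B, a subunit of Polycomb repressive complex 1, were at Tal1 alone among the 7. The Suz12 peak there was 18.5 kb, the Ezh2 peak 5.77 kb and the Ring1B peak 20.2 kb long. Such peaks were near 2.89% of genes for Suz12, 2.1% for Ezh2 and 5.08% for Ring1B. The nearest Ring1B peak to Hba-x lay 7.98 kb from it. In single CUT&RUN libraries, numbered apart from those of RNA-seq, Suz12 peaks were at Klf1, Tal1 and Lmo2 in mutant day 8 library 2 and in WT day 8 library 2, where 20.5% and 22.3% of genes had one. At Tal1 the Suz12 peak taken was 2.46 kb long in mutant day 8 library 2 and 18.5 kb in WT day 8 library 2. Only 1 nearest peak was kept per gene and list, so further peaks at Tal1 would not be seen. These lengths therefore cannot be compared between the libraries. Mutant CUT&RUN library 1 had a Suz12 peak at Tal1 and no other of the 7 in ES cells, at day 4 and at day 8, where 14.2%, 15.2% and 8.96% of genes had one, so 1 of 7 is near the background. The ES cell and day 4 lists of mutant library 2 and of WT library 2 had none at the 7, where 11.8% and 20.2% of genes had one in the mutant and 11.1% and 3.08% in WT. These lists differ in length, from 1000 to 8810 peaks, so presence cannot be compared between them. The merged sets do not tell which stage a peak came from. The authors' deposited tables mark Klf1 and Lmo2 as PRC2 targets, and for the other 5 genes that mark was not analysed here.

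**Figure D4:**
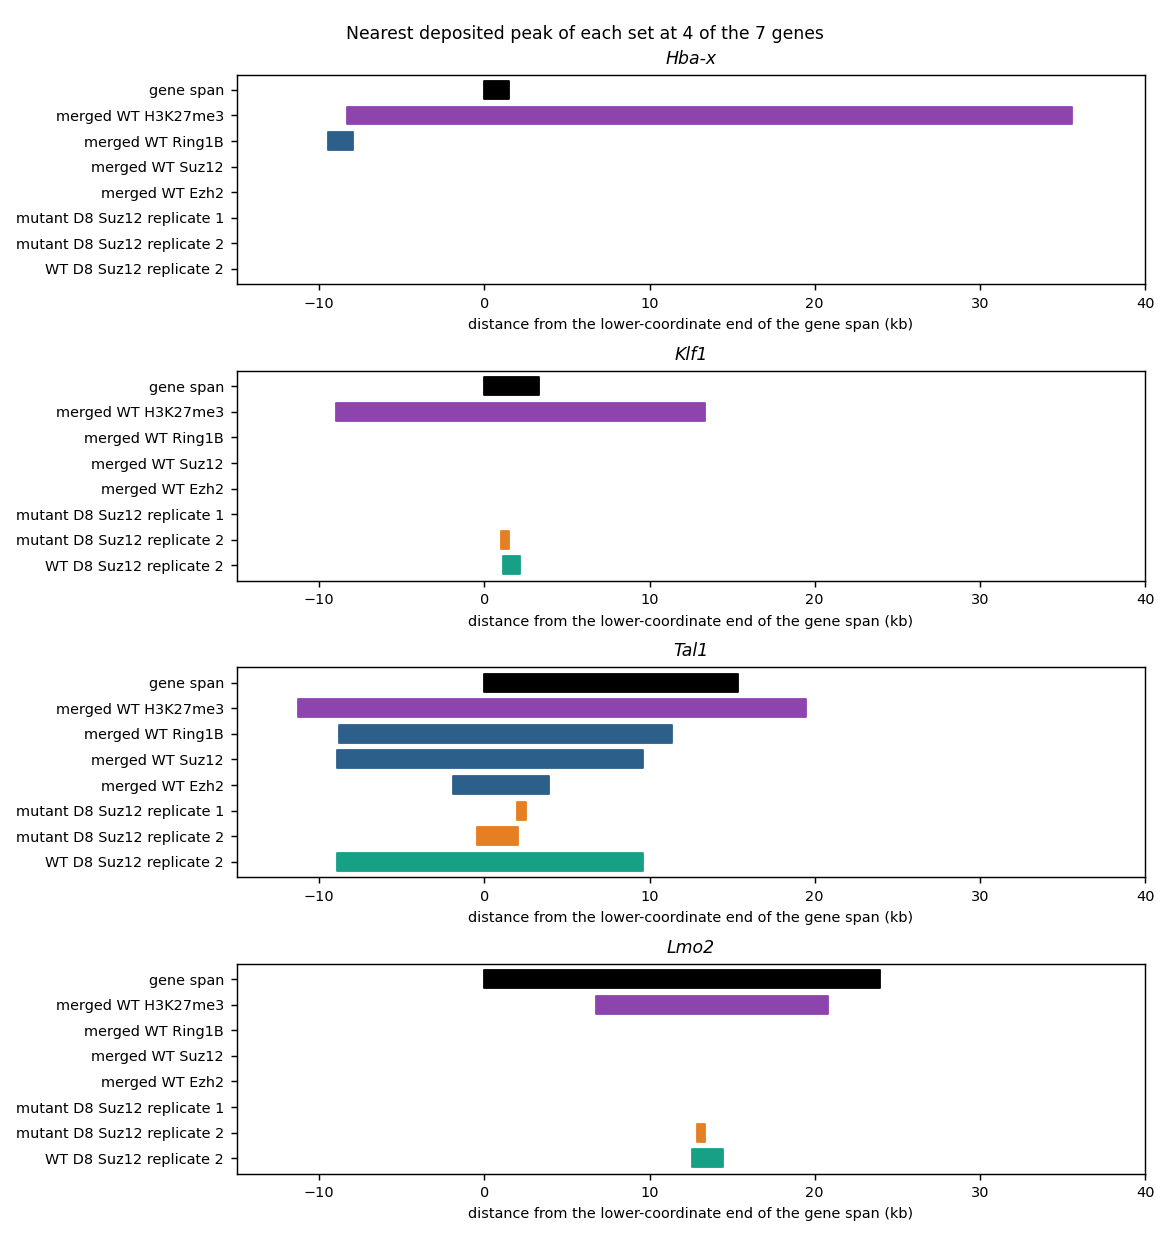
Nearest deposited peak of each set (within 10 kb) at Hba-x, Klf1, Tal1 and Lmo2, drawn as distance in kb from the lower-coordinate end of the gene span, with the gene in black, merged H3K27me3 in purple, merged Ring1B, Suz12 and Ezh2 in blue, mutant day 8 Suz12 in orange and WT day 8 Suz12 in green. All 4 genes have an H3K27me3 peak, and Tal1 is the one with a peak in all 7 sets.

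In replated cells Klf1 and Lmo2 were at the edge of detection. Lmo2 was 0.929 and 1.92 RPKM in GSK343 then GSK343 libraries, against 0, 0 and 0.176 RPKM in GSK343 then DMSO libraries, from at most 10 reads in any of them. These groups did not overlap, as was so in the higher direction for 3.28% of all genes, and the difference of 1.17 (SE 0.33) had an unadjusted p of 0.00369 and an adjusted p of 1 by limma. Lmo2 was 0.819, 0.835 and 0.196 RPKM in DMSO then GSK343 libraries, against 0.871, 0.505 and 0 RPKM in DMSO then DMSO libraries. Klf1 was at 0 in 6 of the 11 libraries and reached 1.24 RPKM, 6 reads, in GSK343 then DMSO library 2. In each of the 4 comparisons 0 of 2 genes passed and 0% of 14367 genes did, with 196 to 3385 genes at an unadjusted p under 0.05.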

How the data were processed

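RNA-seq values of 41 libraries in 3 tables and the positions of CUT&RUN peaks were analysed. The deposited tables hold RPKM per gene, per the file headers. STAR 2.5.3, featureCounts 1.6.1, edgeR, Bowtie2 2.3.4.3, HOMER 4.10.3 and mm10 are named per the submitters' processing notes, which assign them no roles. Annotation, strand and filters are not stated in the labels, so antisense or overlapping genes cannot be told apart. The authors' deposited tables also hold log2 fold changes with p-values from a test of the authors, quoted where named. Peak coordinates are the authors' deposited positions, written counting from 1.

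RPKM were whole multiples of 1 read per library (100% of values within 0.02 of a whole read). The mutant and WT table carries a further scaling per library (RPKM times gene length sums to 0.811 to 2.23 M instead of 1 M), so groups were compared only within a table. GSK343 then GSK343 library 3 was not analysed here.

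limma 3.58.1 (R 4.3.3) was run on log2(RPKM + 1) over all groups of a table with eBayes trend, on genes with at least 0.5 RPKM in no fewer libraries than the size of the smallest group (14016, 14180 and 14367 genes), with Benjamini-Hochberg adjustment over all genes and a threshold of 0.05. SE are limma's. The fit was tested on simulated data. 1 gene that the naming rule picked is not reported here. The 7 genes, the 9 gene lists and the rule for named genes (the 7, a fixed set of partners, up to 4 genes of each list with the smallest p, and the 5 closest profiles) were chosen with earlier results of these data known. RefSeq positions (GRCm38.p6) were found for 15648 of 15924 genes. The 3-read limit covers counting error only.

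Alternatives were a pseudocount of 0.1, a filter at 1 RPKM or none, median-ratio scaling, fits of the compared groups alone, voom on recovered reads, a replicate block and leaving out each library. The labels number replicates without saying what a number shares. Among comparisons with 3 pairs, same-numbered libraries deviated together in every pair (correlations over 0.1) for mutant versus WT at day 4. They did so too for the stage comparisons of mutant and of WT cells. Correlations ran from 0.151 to 0.806 in these comparisons, and the libraries were taken as paired there. The main fits hold no block, so their counts ignore this pairing. The block of the alternative fit is shared by all groups fitted together, not by the compared groups alone.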

Additional observations from a re-analysis of the deposited data

Results flagged for a closer look

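The effect of GSK343 (difference from DMSO in log2(RPKM + 1)) differed between day 8 and day 4 for 6 of the 7 genes by limma's interaction contrast. The day 8 effect minus the day 4 effect was -8.48 for Hbb-bh1 (adjusted p = 4.76e-05), -5.28 for Hba-x (adjusted p = 0.000486) and -3.12 for Hbb-y (adjusted p = 0.0186). It was -1.67 for Gata1 (adjusted p = 0.00597), -2.03 for Tal1 (adjusted p = 0.000407) and -1.72 for Lmo2 (adjusted p = 0.00318). In all 6, both GSK343 libraries lay below both DMSO libraries at day 8, as did those of 32% of all genes. Hba-x and Hbb-y met the filter on low values only through the DMSO day 8 libraries, where they are high. Tal1 reached 0.5 RPKM outside them only in GSK343 day 8 library 1, where 2 libraries were needed. The values of Hba-x, Hbb-y and Tal1 are therefore descriptions. The Hbb-y value did not pass with voom on recovered reads (adjusted p = 0.0616), with the compared groups alone or without any 1 of the 4 day 4 libraries. The Lmo2 value did not pass with a pseudocount of 0.1 (adjusted p = 0.0750). Pluripotency markers moved the other way between the same libraries, with 9 of 12 higher and 0 lower in this contrast, and their part in the result was not tested. Groups of 2 or 3 libraries are too small for a check of single outlying libraries.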

How the results depend on the processing

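Of 254 alternative counts of passing members, 231 kept within 1.5 times the main count. For GSK343 versus DMSO at day 8, leaving out 1 library gave counts from 4 to 7. For mutant versus WT at day 8 it gave 0 to 5, with 5 only without WT library 3. For day 4 versus ES cells it gave 0 to 2 in DMSO cells. For day 8 versus day 4 in WT cells it gave 0 to 7: 0 without WT day 4 library 1 or 3 or day 8 library 1 or 2, 1 without day 4 library 2 and 7 without day 8 library 3. That comparison gave 0 with the compared groups alone, 1 with voom and 5 with the replicate block. Lmo2 alone passed between ES cells and day 4, so the count was 1 in place of 0, in GSK343 cells with a pseudocount of 0.1, no filter, median-ratio scaling, the compared groups alone or the replicate block, and in mutant and WT cells with a pseudocount of 0.1 or the block. The cause was not tested. The block changed no other count by over 1.5 times. In GSK343 and DMSO cells same-numbered libraries also deviated together (correlations 0.358 to 0.666). With 2 libraries a group both pairs give the same correlation, and they were not taken as paired. Mutant and WT libraries were not paired with each other in ES cells or at day 8, where number 2 correlated at 0.0494 and -0.259. Replated cells were not taken as paired either (correlations -0.203 to 0.544). Klf1 did not pass at day 8 under GSK343 with the compared groups alone (adjusted p = 0.0652). No called value changed sign in 291 refits of single genes. Depth limits the globins before day 8 and both genes in replated cells, where 1 read is a large step.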

Other observations

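The ratio of Hba-x to Hbb-bh1 had separate ranges in the 2 experiments at day 8, while that of Hbb-y to Hbb-bh1 overlapped between WT and DMSO libraries. Hba-x over Hbb-bh1, as a ratio of RPKM within a library, was 0.593 in mutant day 8 library 1 and 0.726 and 0.448 in WT day 8 libraries 1 and 2. It was 0.109 and 0.124 in DMSO day 8 libraries 1 and 2. A scaling per library cancels in such a ratio. Hbb-y over Hbb-bh1 was 0.151 in mutant library 1, against 0.0241 and 0.0461 in WT libraries 1 and 2, and it was 0.0183 and 0.0323 in DMSO libraries. The ratio of mutant library 1 rests on 102 reads of Hbb-y and 667 of Hbb-bh1. The experiments were in separate tables, so experiment and control treatment cannot be told apart, and no test was made.

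Runx1, which marks definitive blood but is also expressed in mesenchyme, stood high in replated cells while Klf1 and Lmo2 were near 0. It was 8.50 and 3.01 RPKM in GSK343 then GSK343 libraries, 3.54, 2.58 and 5.73 RPKM in GSK343 then DMSO libraries and 16.1, 11.9 and 13.5 RPKM in DMSO then GSK343 libraries. In DMSO then DMSO libraries it was 7.40, 17.3 and 11.1 RPKM. The GSK343 then DMSO libraries did not overlap those of DMSO then DMSO, as was so in the lower direction for 20.7% of all genes (log2 fold change -1.36, SE 0.44, limma adjusted p = 0.169), and the difference did not pass.

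Mean Gata1 RPKM was higher in ES cells than at day 4 in each of the 4 conditions, and by limma only the DMSO difference passed. The authors' deposited test gives the fall an adjusted p of 4.83e-10 in DMSO and 0.0315 in mutant cells. It gives 0.0504 in GSK343 and 0.527 in WT cells. In ES cells Gata1 was 1.17, 0.663 and 0.922 RPKM in mutant libraries, against 0.547, 0.816 and 0.209 RPKM in WT libraries, and at day 4 no mutant or WT library exceeded 0.446 RPKM.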
